A study of Homo sapiens with 11 samples.

Results

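The homing and chemokine receptor genes are 9 genes of T-cell trafficking, namely CCR7, CCR9, CCR4, CXCR4, S1PR1, KLF2, ITGAE, CD44 and CD52. They were chosen by name among the 19775 genes measured in 11 established cell lines of T-cell acute lymphoblastic leukemia (T-ALL), and all 9 were found, with 25 of the 41091 probe sets that carry a single gene symbol. Where a gene had several probe sets, the brightest by its mean over all lines stands for it. RNA of each line was measured on 1 HG U133 Plus 2.0 array, and the values are log2 levels after RMA. The study compared T-ALL lines with and without activity of NKL homeobox genes, developmental transcription factors that are ectopically active in many T-ALL. NKL-positive were PEER, LOUCY, HPB-ALL, ALL-SIL, CCRF-CEM and JURKAT, and NKL-negative were SUP-T1, CML-T1 and the lines MOLT-4, MOLT-16 and MOLT-14. JURKAT was left out of the group comparison, as in the study, and its values are given apart. The labels name no treatment, and a line is a single leukemia grown in culture, so the spread within a group is the spread between leukemias, and a value of 1 line has no error of its own.

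Traffic of T-cells is directed by receptors that read chemokines and lipids and by adhesion molecules that hold the cell to its target tissue. CCR7 guides cells into lymph nodes, CCR9 to the small intestine and within the thymus, CCR4 to skin, and CXCR4 to niches in the bone marrow. S1PR1 lets cells leave lymphoid organs, and in mouse T-cells the transcription factor KLF2 switches S1PR1 on. ITGAE, also named CD103, is the alpha chain of an integrin that holds T-cells at epithelia. CD44 binds hyaluronan, and CD52 is a small glycoprotein on mature lymphocytes and the target of alemtuzumab.

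The 11 lines carried RNA of CD3 chains and of T-cell receptor kinases, with CD3D between 12.64 and 13.44 and LCK between 10.73 and 12.22. Whether a receptor complex was assembled is not seen in RNA levels. The mean of the 10 T-lineage markers lay between 8.74 and 10.62 in every line, that of the 6 myeloid markers between 3.66 and 4.29 and that of the 3 measured erythroid markers between 3.77 and 4.77. The 5 measured B-cell markers averaged between 4.55 and 6.23 and the 5 NK-cell markers between 4.01 and 5.71. Single markers lay far above these means. CD79A exceeded the array median in all 11 lines and reached 10.12 in CML-T1 and 9.25 in LOUCY, and GNLY reached 10.38 in MOLT-16. No lineage marker was called between NKL-positive and NKL-negative lines, and the largest differences in each list were those of CD7 (0.99), CD2 (-0.86) and CD28 (0.76) for T-cells, CD79B (2.19, with 2 further probe sets of opposite sign), MS4A1 (-0.67) and PAX5 (0.41) for B-cells, CEBPA (-0.62), CD14 (0.51) and CSF1R (0.33) for myeloid cells, GNLY (-0.94), NCAM1 (-0.26) and NCR1 (-0.24) for NK-cells, and HBB (0.36), KLF1 (0.02) and ALAS2 (-0.01) for erythroid cells. PAX5, NCAM1 and HBB each had 1 probe set of opposite sign. The adhesion molecule CD2 lay below the array median in 4 lines, namely LOUCY, PEER, CML-T1 and SUP-T1. Array medians were between 4.63 and 4.76 and lower quartiles between 3.45 and 3.60, and a value at or below the lower quartile is called background here. The 27 poly-A control probe sets, which read RNA added to the sample, averaged between 2.99 and 3.12 in CML-T1, MOLT-16 and HPB-ALL, against 5.65 to 8.76 in the other 8 lines. The sources do not give the reason. Where this split touches a result, values are also given for the 8 lines with poly-A signal, called lines with poly-A controls here.

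The 9 genes differed widely between the lines. A gene is called high in a line where it exceeded the array median and also the median of the remaining 10 lines by 2 log2 units or more, and low where it fell short of that median by as much and the median itself exceeded the array median. Either case is said to stand out. By this rule 7 of the 9 genes were high in at least 1 line, compared with 11.5% of all genes, and 5 of 9 were low in at least 1 line, compared with 9.46%. The range over the 11 lines reached at least 4 log2 units for 7 of the 9 genes and for 9.16% of all genes, and its median was 5.81 for the 9 genes and 1.66 for all genes. The genes below this range were CXCR4 and ITGAE. Among 127 other measured genes of traffic, taken up in later paragraphs, 22.8% were high in at least 1 line. A range of at least 4 log2 units was reached by 20.5% of them.

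**Figure D1:**
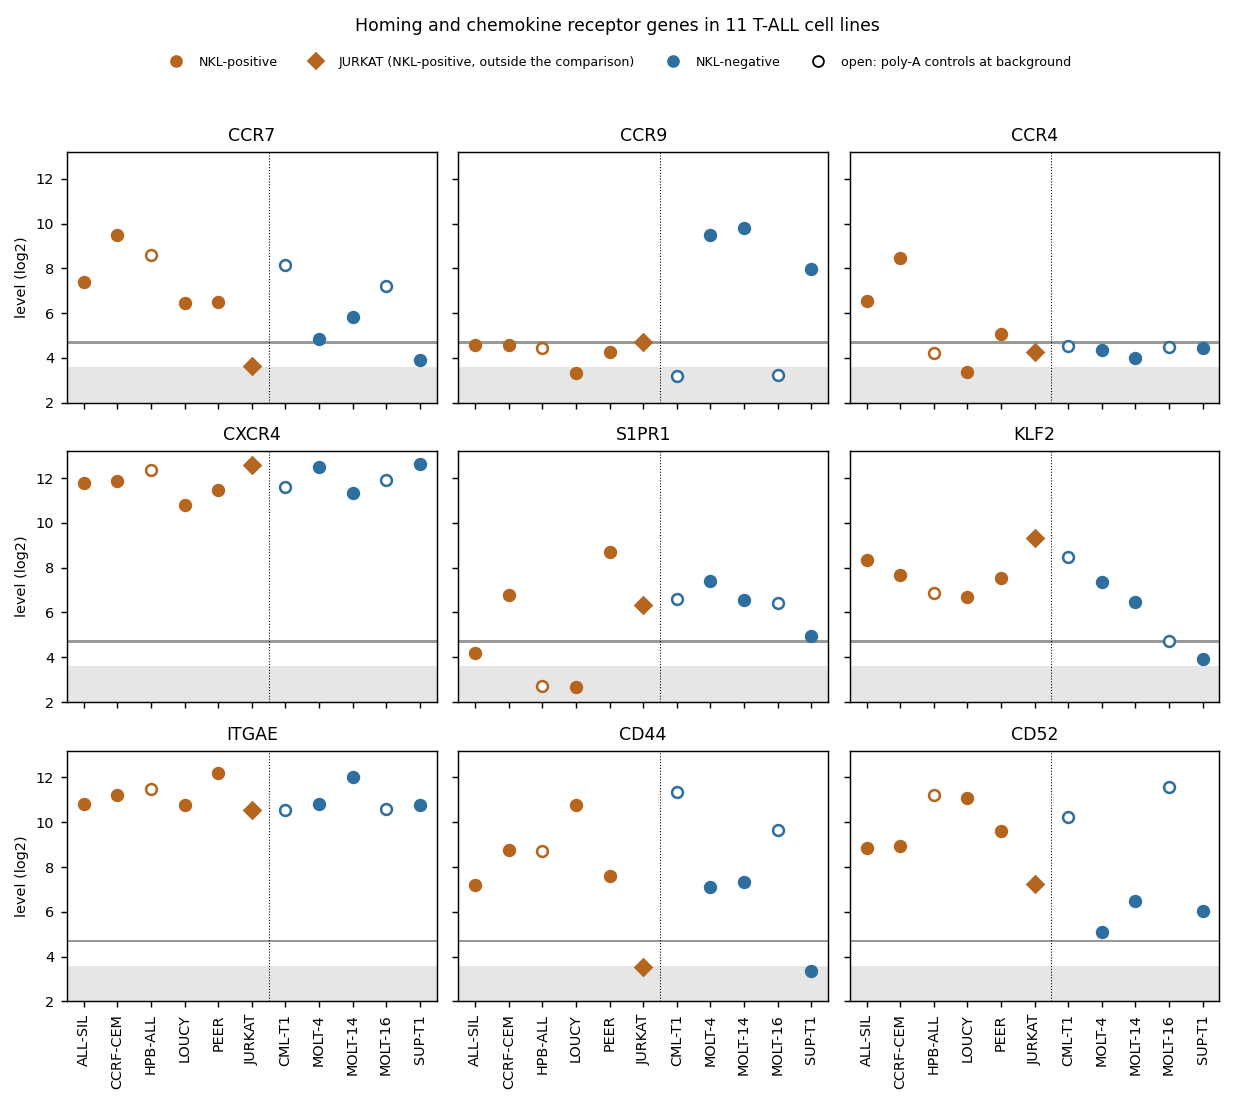
Log2 level of each gene (vertical axis) in each of the 11 lines (horizontal axis), with 1 point per array, NKL-positive lines left and NKL-negative lines right of the dotted line. The dark band marks the array medians (4.63 to 4.76) and the pale zone background, and CXCR4 and ITGAE stay above 10.5 in all lines whereas the other 7 genes fall to or near the bands in at least 1 line.

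Among the chemokine receptors, CXCR4 was strongly present in all lines. CXCR4, the receptor of CXCL12 (chr2:136114349-136118149, GRCh38.p14), read 11.78 in ALL-SIL, 11.85 in CCRF-CEM, 12.38 in HPB-ALL, 10.80 in LOUCY and 11.48 in PEER, against 11.59 in CML-T1, 12.49 in MOLT-4, 11.35 in MOLT-14, 11.91 in MOLT-16 and 12.65 in SUP-T1. JURKAT read 12.60. The groups overlapped, the line with the lowest level was LOUCY, and SUP-T1 and JURKAT had the highest levels. The range of 1.85 was at the 58.0th percentile of all genes, so CXCR4 varied about as much as an ordinary gene on these arrays. The difference between NKL-positive and NKL-negative means was -0.34 (SE 0.34), and the other 2 probe sets gave -0.48 and -0.30. These 2 ordered the lines differently. HPB-ALL read 12.13 and 12.25 in them, SUP-T1 12.03 and 12.30 and JURKAT 11.68 and 11.91. PEER was the lowest line in the first, at 9.78, and LOUCY in the second, at 10.08.

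CCR9 was either high or near background, depending on the line. CCR9, the receptor of CCL25 (chr3:45886064-45903174), read 4.58 in ALL-SIL, 4.59 in CCRF-CEM, 4.43 in HPB-ALL, 3.32 in LOUCY and 4.25 in PEER, against 3.21 in CML-T1, 9.47 in MOLT-4, 9.82 in MOLT-14, 3.25 in MOLT-16 and 7.98 in SUP-T1. JURKAT read 4.73. All 5 NKL-positive lines of the comparison lay below the array median and JURKAT just above it, and among the NKL-negative lines 3 were high and 2 at background. A gap of 3.25 log2 units separated SUP-T1, the lowest of the 3 high lines, from JURKAT, the next line. The NKL-positive mean was 4.23 ± 0.53 and the NKL-negative mean 6.75 ± 3.28 (SD, n = 5 each), a difference of -2.51 (SE 1.30) with an unadjusted limma p of 0.0808, which did not pass. The neighbouring gene LZTFL1 overlaps CCR9 in the annotation and was measured by its own probe sets. LZTFL1 read 9.44 in MOLT-4, 9.66 in MOLT-14 and 9.89 in SUP-T1, the lines with high CCR9, and was lowest in LOUCY (5.52), CML-T1 (3.62) and MOLT-16 (6.65), where CCR9 was at background. It also read 9.55 in ALL-SIL and 8.67 in CCRF-CEM, where CCR9 was not high, and r between the genes was 0.64 over the 11 lines. Its part in the CCR9 pattern was not tested.

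CCR4 and CCR7 had their highest levels in the same line, CCRF-CEM. CCR4, the receptor of CCL17 and CCL22 (chr3:32951644-32956349), read 6.53 in ALL-SIL, 8.46 in CCRF-CEM, 4.22 in HPB-ALL, 3.38 in LOUCY and 5.06 in PEER, against 4.54 in CML-T1, 4.36 in MOLT-4, 4.01 in MOLT-14, 4.48 in MOLT-16 and 4.44 in SUP-T1. JURKAT read 4.28. CCR4 thus stood out in CCRF-CEM and ALL-SIL, both NKL-positive, was slightly above the array median in PEER, and lay below it in the other 8 lines. The NKL-positive mean was 5.53 ± 2.01 and the NKL-negative mean 4.37 ± 0.21 (SD, n = 5 each), and the difference of 1.16 (SE 0.80) was 0.43 without CCRF-CEM.

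CCR7 was graded rather than switched. CCR7, the receptor of CCL19 and CCL21 (chr17:40553769-40565472), read 7.38 in ALL-SIL, 9.47 in CCRF-CEM, 8.59 in HPB-ALL, 6.44 in LOUCY and 6.51 in PEER, against 8.15 in CML-T1, 4.84 in MOLT-4, 5.83 in MOLT-14, 7.23 in MOLT-16 and 3.91 in SUP-T1. JURKAT, at 3.66, was the lowest line of all. CCR7 stood out high in CCRF-CEM and HPB-ALL and low in MOLT-4, SUP-T1 and JURKAT, and the groups overlapped because CML-T1 and MOLT-16 reached the level of the NKL-positive lines. The NKL-positive mean was 7.68 ± 1.33 and the NKL-negative mean 5.99 ± 1.72 (SD, n = 5 each), with a difference of 1.69 (SE 0.86) and an unadjusted p of 0.0759, the smallest among the 9 genes. With JURKAT added to the NKL-positive lines the difference was 1.02.

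S1PR1, the egress receptor for sphingosine 1-phosphate (chr1:101236899-101242313), was at background in a pair of lines. It read 4.19 in ALL-SIL, 6.79 in CCRF-CEM, 2.71 in HPB-ALL, 2.65 in LOUCY and 8.72 in PEER, against 6.61 in CML-T1, 7.41 in MOLT-4, 6.57 in MOLT-14, 6.42 in MOLT-16 and 4.97 in SUP-T1. JURKAT read 6.33. The NKL-positive lines held both the highest level, in PEER, and the 3 lowest, in LOUCY, HPB-ALL and ALL-SIL, whereas all 5 NKL-negative lines lay above the array median. S1PR1 averaged 5.01 ± 2.67 in NKL-positive lines, against 6.40 ± 0.89 in NKL-negative ones (SD, n = 5 each). The difference was -1.38 (SE 1.10), and this value ran between -2.31 without PEER and -0.79 without LOUCY.

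KLF2 (chr19:16324826-16328685) read 8.33 in ALL-SIL, 7.69 in CCRF-CEM, 6.89 in HPB-ALL, 6.71 in LOUCY and 7.55 in PEER, against 8.47 in CML-T1, 7.38 in MOLT-4, 6.48 in MOLT-14, 4.73 in MOLT-16 and 3.91 in SUP-T1. JURKAT had the highest level, 9.34. Low levels occurred in MOLT-16 and SUP-T1 alone, and the other 3 NKL-negative lines lay within or next to the NKL-positive range. The NKL-positive mean was 7.43 ± 0.65 and the NKL-negative mean 6.19 ± 1.87 (SD, n = 5 each), and the difference of 1.24 (SE 0.78) was 0.67 without SUP-T1. The second KLF2 probe set pointed the other way, with a difference of -0.40 (SE 0.46). It was dim, exceeding the array median in CML-T1 alone at 6.51, and its r with the first was 0.35.

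KLF2 and its target in mouse T-cells did not run in parallel. HPB-ALL and LOUCY had KLF2 at 6.89 and 6.71 with S1PR1 at background, and MOLT-16 had KLF2 at 4.73 with S1PR1 at 6.42. Over the 11 lines r between the 2 genes was 0.17 (Spearman's rho 0.24), and it was 0.18 in the 9 lines without HPB-ALL and LOUCY. FOXO1, a transcription factor that induces KLF2 in mouse T-cells, read 6.81 in JURKAT, the line with the highest KLF2, but also 6.54 in LOUCY, and its range was 3.45 to 6.81. CD69, which binds S1PR1 and removes it from the cell surface, ranged between 2.64 in ALL-SIL and 11.10 in MOLT-16, and such a loss from the surface is not seen in RNA levels.

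ITGAE, like CXCR4, was high throughout. It read (chr17:3714628-3801188) 10.80 in ALL-SIL, 11.20 in CCRF-CEM, 11.48 in HPB-ALL, 10.79 in LOUCY and 12.20 in PEER, against 10.56 in CML-T1, 10.82 in MOLT-4, 12.00 in MOLT-14, 10.59 in MOLT-16 and 10.75 in SUP-T1. JURKAT read 10.53. The top levels were those of PEER and MOLT-14, 1 in each group, with neither past the 2 log2 units that count as high, and the difference was 0.35 (SE 0.35) with overlapping groups. ITGB7, the beta chain that pairs with ITGAE to form an integrin, was not uniform. It ranged between 3.77 in HPB-ALL, below the array median, and 8.40 in MOLT-16, so that HPB-ALL held ITGAE at 11.48 without its partner above the array median. HPB-ALL was also the line in which CDH1, the E-cadherin bound by the integrin of ITGAE and ITGB7, stood out. CDH1 read 7.53 there, against 3.40 or less in the other 10 lines. However, the second CDH1 probe set gave a group difference of opposite sign. ITGAE overlaps the genes HASPIN and P2RX5 in the annotation, and their r with ITGAE were 0.02 and 0.49.

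CD44 had the widest range of the 9 genes, 8.03 log2 units, at the 99.6th percentile of all genes. CD44 (chr11:35139171-35232402) read 7.21 in ALL-SIL, 8.77 in CCRF-CEM, 8.72 in HPB-ALL, 10.76 in LOUCY and 7.58 in PEER, against 11.37 in CML-T1, 7.12 in MOLT-4, 7.34 in MOLT-14, 9.64 in MOLT-16 and 3.34 in SUP-T1. JURKAT read 3.55. CML-T1, LOUCY and MOLT-16 were high and SUP-T1 and JURKAT lay at or next to background, so that high and low lines occurred on both sides of the NKL status. CD44 averaged 8.61 ± 1.39 in NKL-positive lines, against 7.76 ± 3.03 in NKL-negative ones (SD, n = 5 each). The difference of 0.85 (SE 1.30) became -0.26 without SUP-T1, 1.75 without CML-T1 and 0.00 with JURKAT among the NKL-positive lines.

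CD44 is a gene with many alternative exons and was read by 13 probe sets. Of the other 12, 7 followed the one read with r of at least 0.88, and in all 8 of these SUP-T1 and JURKAT were the lowest lines. The upper order was less even. MOLT-16, high in the probe set read, lay below CCRF-CEM in each of the other 7, for example at 7.20 against 8.57 in 204489_s_at. LOUCY exceeded CML-T1 in 204489_s_at, 209835_x_at, 210916_s_at and 212014_x_at. Group differences in the 7 ran between 0.05 for 217523_at and 1.66 for 210916_s_at. The remaining 5 were dim. Among them 1565868_at, 229221_at and 234418_x_at pointed the other way in the group comparison, with differences of -0.32, -0.63 and -0.17, and 234418_x_at was at background in all 11 lines. The probe set 229221_at was above the array median in CML-T1 alone, at 6.43, the line with the highest CD44 in the probe set read.

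**Figure D2:**
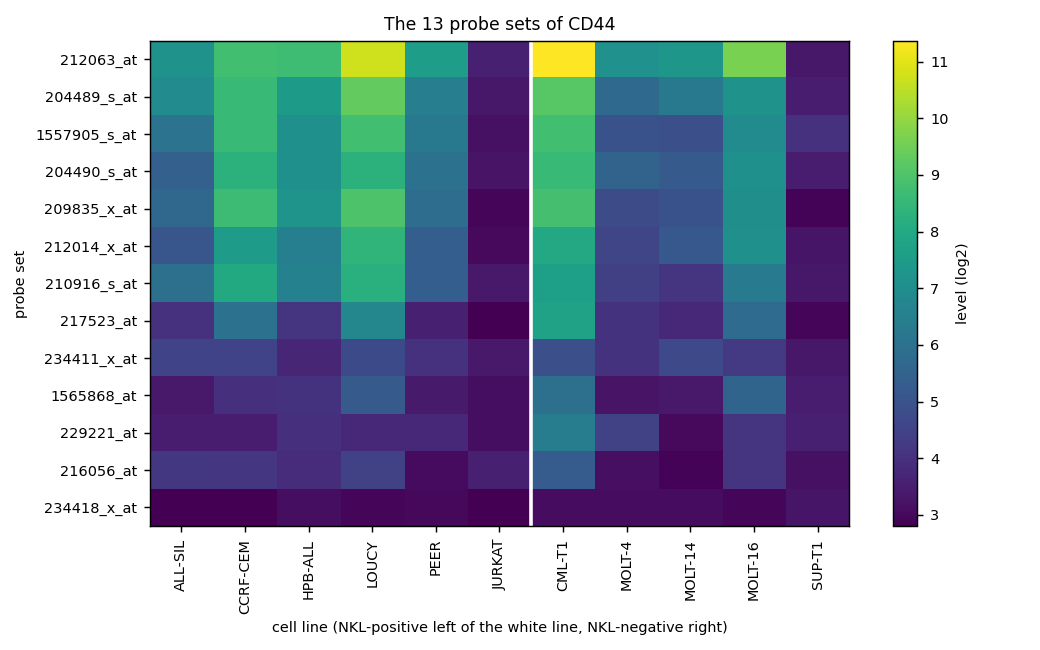
Log2 level (colour) of the 13 CD44 probe sets (rows, brightest at the top) in 11 lines (columns, NKL-positive left and NKL-negative right of the white line). The 8 upper rows show CML-T1 and LOUCY bright and SUP-T1 and JURKAT dark, and the 5 lower rows are dim in nearly all lines.

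CD52 (chr1:26317958-26320523) read 8.86 in ALL-SIL, 8.93 in CCRF-CEM, 11.23 in HPB-ALL, 11.10 in LOUCY and 9.61 in PEER, against 10.22 in CML-T1, 5.10 in MOLT-4, 6.48 in MOLT-14, 11.59 in MOLT-16 and 6.05 in SUP-T1. JURKAT read 7.26. No line was at background, and CD52 was low in MOLT-4, SUP-T1, MOLT-14 and JURKAT and high in MOLT-16, HPB-ALL and LOUCY. CD52 averaged 9.95 ± 1.15 in NKL-positive lines, against 7.89 ± 2.84 in NKL-negative ones (SD, n = 5 each). The difference was 2.06 (SE 1.20), and the second probe set gave 2.37 with r = 0.99 to the first. The gene UBXN11 overlaps CD52 in the annotation, and its r with CD52 was 0.44.

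In the comparison of 5 against 5 lines, none of the 9 genes separated NKL-positive and NKL-negative lines. With limma and Benjamini-Hochberg adjustment over 54613 probe sets, 0 of the 25 probe sets of these genes were called at 0.05, against 0.00916% of all probe sets, and the smallest adjusted p among the genes was 0.981. At an unadjusted p under 0.05 the count was also 0 of the 9 genes, against 5.26% of all genes, and the groups of 5 lines overlapped for all 9, compared with 0.905% of all genes whose groups did not. The mean was higher in NKL-positive lines for 6 of the 9 genes, compared with 49.8% of all genes. It was lower for CCR9, CXCR4 and S1PR1. The median difference was 0.85 for the 9 genes and 0.00 for all genes, and since the SE of single genes reached 1.30, a p that missed the threshold does not show equal levels.

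Among the 4 NKL-positive and 3 NKL-negative lines of the comparison whose arrays carried poly-A signal, 3 of the 9 genes did not overlap between the groups, compared with 7.88% of all genes. They were CCR7, CCR9 and CD52. CCR9 averaged 4.19 ± 0.60 in ALL-SIL, CCRF-CEM, LOUCY and PEER and 9.09 ± 0.98 in MOLT-4, MOLT-14 and SUP-T1 (SD, n = 4 and n = 3), a difference of -4.91 (SE 0.51). The adjusted limma p was 0.114, with 0.00549% of all probe sets called in this fit. CD52 averaged 9.63 ± 1.04 in the same 4 NKL-positive lines and 5.88 ± 0.71 in MOLT-4, MOLT-14 and SUP-T1, with a difference of 3.75 (SE 0.60) and an adjusted limma p of 0.279. CCR7 differed by 2.59 (SE 0.80), with an adjusted limma p of 0.567. JURKAT, which also has poly-A controls, read 4.73 for CCR9, near the NKL-positive lines, 7.26 for CD52, between both groups and nearer to MOLT-14 (6.48) than to ALL-SIL (8.86), and 3.66 for CCR7, below all 3 NKL-negative lines. Among the 3 lines without poly-A signal HPB-ALL read 4.43 for CCR9 and 11.23 for CD52, and the NKL-negative lines CML-T1 and MOLT-16 averaged 3.23 for CCR9 and 10.91 for CD52. Over both NKL groups, the 3 lines without poly-A signal and the 8 lines with it averaged 7.99 and 6.005 for CCR7, 3.63 and 6.09 for CCR9, 9.91 and 6.96 for CD44 and 11.01 and 7.92 for CD52. With 1 NKL-positive line among these 3 arrays no test was run within them. Whether the unknown reason for the poly-A split has a part in the pattern of CCR9, CD52 and CCR7 was not tested.

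**Figure D3:**
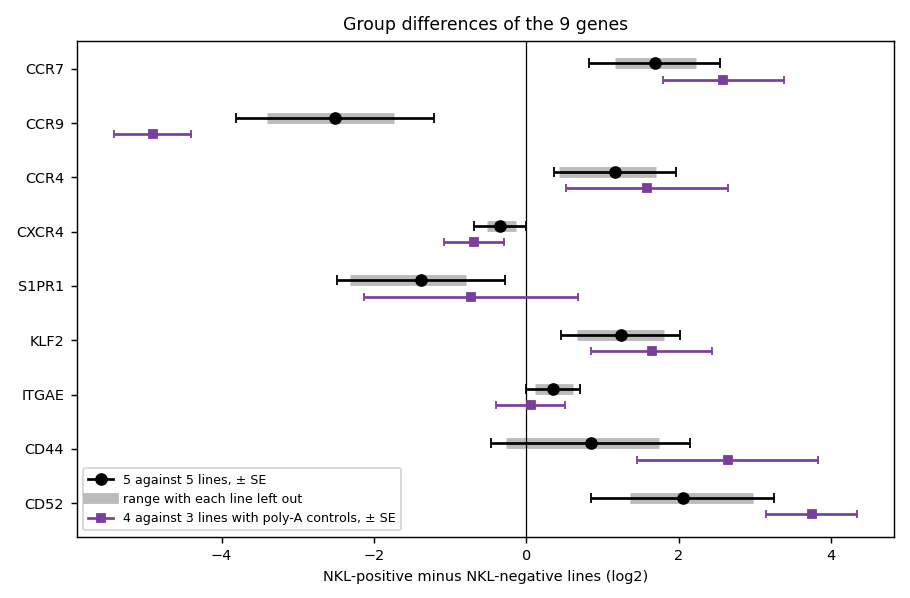
Difference in log2 level, NKL-positive minus NKL-negative lines, for each gene. Black points give the comparison of 5 against 5 lines ± SE, grey bars the range with each line left out in turn, and squares the 4 against 3 lines with poly-A controls ± SE. The grey bar crosses 0 for CD44 alone. The squares lie farther from 0 than the black points for all genes except S1PR1 and ITGAE. Farthest from 0 are the squares of CCR9 (-4.91), CD52 (3.75), CD44 (2.65) and CCR7 (2.59).

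Some of the genes moved together from line to line. The 3 lines with high CCR9 were the 3 lines with the lowest CD52, namely MOLT-4, SUP-T1 and MOLT-14. These 3 lines form a cluster of their own and CCR9 was at background or near the array median in the other 8. For this reason no correlation of CCR9 with another of the 9 genes is given. The r of CCR9 with genes outside the 9, given in other paragraphs, have the same limit. SUP-T1 and JURKAT, the lowest lines in CD44, were also the lowest in CCR7. In the 9 lines without them r between CD44 and CCR7 was 0.40, and between CD44 and CD52 it was 0.68. CXCR4, highest in SUP-T1 and JURKAT in the probe set read, gave r = -0.39 with CD44 in these 9 lines. In the 6 of these lines with poly-A controls, a choice made after seeing the data, r with CD44 was 0.28 for CCR7 and 0.72 for CD52. For CXCR4 it was -0.68, again in the probe set read. The other CXCR4 probe sets ordered the lines differently, so the negative sign with CD44 holds for the probe set read alone. All 36 pairs of the 9 genes were computed, each line shares its array between the genes, and the values are descriptions.

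**Figure D4:**
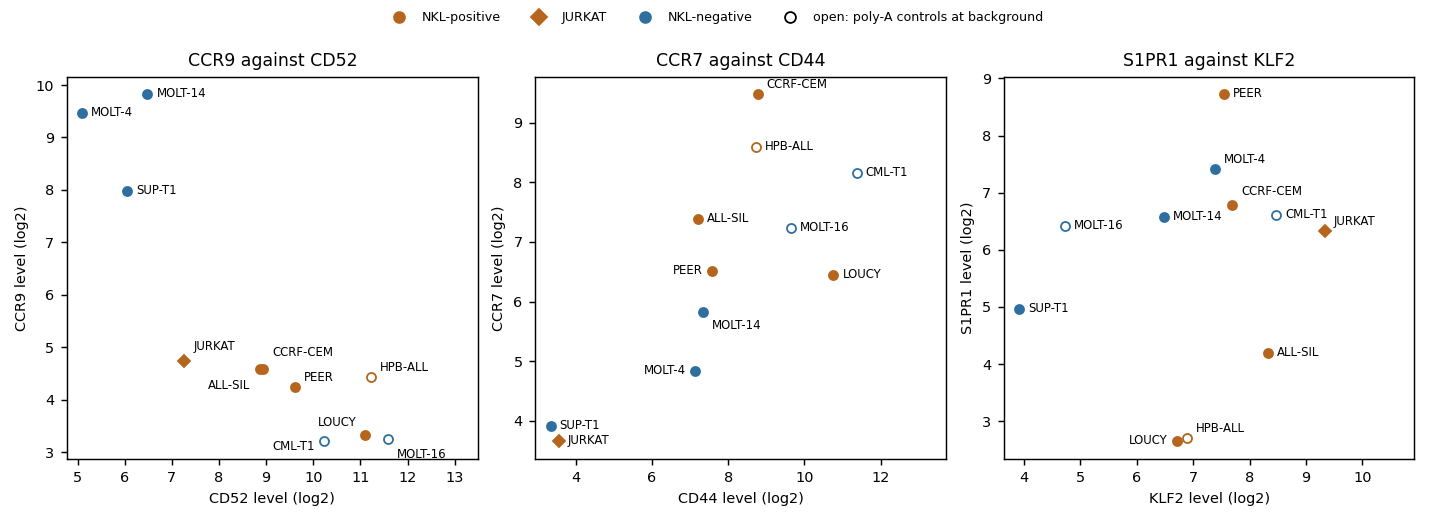
Log2 levels of 3 pairs of genes, with 1 labelled point per line. MOLT-4, MOLT-14 and SUP-T1 lie apart with high CCR9 and low CD52 (left), SUP-T1 and JURKAT lie apart with low CD44 and low CCR7 (middle), and S1PR1 shows no order along KLF2 (right).

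For CD44 and CD52, whose levels ran together, the 250 bases before the annotated start are shown with the CACCC box, the core letters that factors of the KLF family bind. They come from RefSeq on GRCh38.p14, both on the plus strand, and lie at chr11:35138921-35139170 and chr1:26317708-26317957. Capitals mark CACCC or, for the other strand, its reverse complement GGGTG, and none of these overlap.
CD44: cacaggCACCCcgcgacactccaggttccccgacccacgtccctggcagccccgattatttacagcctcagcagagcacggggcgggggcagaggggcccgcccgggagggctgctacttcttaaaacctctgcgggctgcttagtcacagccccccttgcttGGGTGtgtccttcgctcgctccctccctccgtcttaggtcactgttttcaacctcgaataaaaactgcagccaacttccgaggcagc
CD52: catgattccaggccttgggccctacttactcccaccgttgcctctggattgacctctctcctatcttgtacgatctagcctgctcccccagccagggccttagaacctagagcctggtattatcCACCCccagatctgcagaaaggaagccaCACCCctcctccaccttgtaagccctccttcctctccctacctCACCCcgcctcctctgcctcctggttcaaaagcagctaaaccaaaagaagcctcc
CD44 held 2 such boxes, 1 on each strand, and CD52 held 3, all on the strand shown. A box on either strand occurs in 54.7% of 35116 RefSeq windows of this length, at least 2 boxes in 23.1% and at least 3 in 8.6%. Boxes were not particular to this pair. The windows of CCR9, CCR4 and S1PR1 held 2 boxes each, those of CXCR4 2 or 3, that of ITGAE 1 and that of KLF2 none. The sources used here held no window for CCR7. Such a match is a matter of letters, and CD44 and CD52 had r of 0.09 and 0.00 with KLF2 over the 11 lines.

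By line, SUP-T1 was the most deviating, with 5 of the 9 genes standing out, CCR9 high and CCR7, KLF2, CD44 and CD52 low, whereas 3.84% of all genes stood out there. JURKAT followed with 4, KLF2 high and CCR7, CD44 and CD52 low (3.08% of all genes). CCRF-CEM combined high CCR7 and high CCR4, and HPB-ALL combined high CCR7 and high CD52 with S1PR1 at background. LOUCY, a line of immature type, and MOLT-16 shared high CD44 and high CD52, LOUCY with low S1PR1 and MOLT-16 with low KLF2. In MOLT-16 the high CD44 was that of the probe set read, and 7 other CD44 probe sets placed MOLT-16 below CCRF-CEM. MOLT-4 and MOLT-14 shared high CCR9 and low CD52, and MOLT-4 was also low in CCR7. PEER stood out for S1PR1 alone, CML-T1 for CD44 alone, and ALL-SIL for high CCR4 and low S1PR1. In total 15 of the 99 combinations of gene and line were high and 14 low, or 15.2% and 14.1%, compared with 1.88% and 1.58% over all genes.

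The partners of the 9 genes gave 0 calls among 11 measured. The ligands were scarcely expressed by the lines themselves. CXCL12 ranged between 3.71 and 5.15, CCL25 between 3.60 and 4.48, CCL19 between 3.43 and 4.48, CCL21 between 3.36 and 5.44, CCL17 between 3.26 and 5.54 and CCL22 between 3.96 and 5.62. CCL25 and CCL19 did not exceed the array median in any line. ITGA4, the alpha chain that pairs with ITGB7 in the gut-homing integrin, was present in all lines at 10.10 to 11.28.

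Other genes of traffic were likewise not called. Of 127 measured genes in 8 lists of partners, receptors, ligands, sphingosine 1-phosphate metabolism, adhesion, KLF factors, signalling and other trafficking receptors, 64 had a higher and 63 a lower NKL-positive mean, 0 passed after adjustment and 10 had an unadjusted p under 0.05 in limma, 7.87% against 5.26% of all genes. Among 17 further chemokine receptors 6 were higher and 11 lower. The largest differences were those of the scavenger receptor ACKR3 (1.34), the atypical receptor CCRL2 (-0.86) and the fractalkine receptor CX3CR1 (0.74). ACKR3 and CX3CR1 each had 1 probe set of opposite sign. CX3CR1 stood out in HPB-ALL at 7.59 and MOLT-16 at 5.99, and CCR8, a receptor related to CCR4, in PEER at 8.76, MOLT-16 at 7.88 and ALL-SIL at 7.51.

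Of 20 chemokine ligands 5 were higher and 15 lower, with CCL28 (0.73), XCL1 (0.53) and CCL5 (-0.50) at the largest differences. XCL1, the T-cell chemokine lymphotactin, was switched, with 6.67 to 9.58 in CCRF-CEM, HPB-ALL, LOUCY, PEER, CML-T1 and MOLT-16 and 3.92 or less in the other 5 lines. The other XCL1 probe set gave a difference of opposite sign. In the sphingosine 1-phosphate list 5 genes were higher and 5 lower, and S1PR3, a sister receptor of S1PR1, had the largest difference at -2.59 (SE 1.23), with an unadjusted limma p of 0.0608. S1PR3 reached 10.85 in MOLT-16 and 8.87 in JURKAT and was at background in LOUCY (2.87) and ALL-SIL (3.23). LOUCY thus had S1PR1 and S1PR3 at background, whereas S1PR4 read 7.79 there. CD69 (-1.32) and the exporter SPNS2 (0.95) followed.

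Of 22 adhesion genes 12 were higher and 10 lower. ICAM3, a ligand of the integrin LFA-1, had the largest difference, 1.85, and read 3.17 in SUP-T1 and 7.50 to 11.26 in the other lines. CD99 (1.17), an adhesion molecule of leukocyte transmigration, was also lowest in SUP-T1, at 7.48, with 11.08 or more elsewhere. The integrin chain ITGAV differed by -1.17 and was at background in ALL-SIL at 2.82. Among 16 KLF and FOXO factors 10 were higher and 6 lower, and KLF11 (-1.62), KLF15 (-1.59) and KLF12 (-0.78) led. KLF15 lay between 3.73 and 4.90 in the 5 compared NKL-positive lines and between 4.67 and 7.14 in NKL-negative ones, with JURKAT at 5.97. It had an unadjusted limma p of 0.003 and an adjusted limma p of 0.773.

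Among 27 signalling and motility genes 18 were higher and 9 lower. DOCK8, an exchange factor needed for T-cell migration, had the largest difference, 1.65. It was at background in SUP-T1 (2.79) and JURKAT (2.83) and at 9.03 or more in the other 9 lines, and these are the same lines in which CD44 and CCR7 were lowest. ARRB1, an arrestin that desensitizes chemokine receptors, differed by 1.16, and RGS1, which curbs their G proteins, by -0.97, with RGS1 high in CCRF-CEM, CML-T1 and MOLT-16. Among 14 other trafficking receptors 7 were higher and 7 lower, and the prostaglandin receptors PTGER4 (-1.70) and PTGDR2 (0.89) and the antigen CD24 (-1.21) led, PTGER4 with 1 probe set of opposite sign.

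Genes most like each of the 9 were sought by Pearson's r over the 11 lines among the genes whose range reached at least 2 log2 units. The nearest genes were GALK2 (0.89), RUFY2 (0.89) and LINC02603 (0.85) for CCR7, PSAP (0.90), HSD17B6 (0.88) and THEMIS (0.88) for CXCR4, and ANKRD9 (0.88), EPS8L2 (0.86) and STXBP2 (0.85) for S1PR1. KLF2 had LZTS1 (0.81), DEF8 (0.81) and PPP1R16A (0.81), and ITGAE had ARMCX2 (0.92), SCN7A (0.90) and PRTFDC1 (0.88). CD44 was followed by WIPF1 (0.93), AMPD3 (0.91) and NKAPP1 (0.89), and CD52 by ALG10 (0.93), CTSS (0.91) and CD63 (0.90). For CCR9 the nearest were H2AC5P (0.88), ADAMTS15 (0.88) and FBXO2 (0.87), and for CCR4 VAC14-AS1 (0.91), LRRC18 (0.91) and TPSB2 (0.87), and CCR9 was high in 3 lines and CCR4 in 2. WIPF1 organizes actin with WAS, and CTSS and CD63 belong to the lysosome. The candidates numbered 7187 or 7188 for each gene, and with 11 lines each of the 9 genes had neighbours of this likeness.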

How the data were processed

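Total RNA of 11 T-ALL cell lines had been hybridized to 1 array each. The authors processed the arrays by RMA (affy, with limma named in the submitters' processing notes; genome build not given in the sources used here), and the deposited log2 values were used as given. Of the probe sets, 62 controls were left out and 54613 tested, 41091 with 1 gene symbol and 1801 with several, and 41037 of the symbols matched RefSeq with 0 updated. A probe set names a gene only where it carries 1 symbol. Some genes of the lists are not reported here.

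The groups followed the NKL status in the labels. The test was limma 3.58.1 (R 4.3.3) with 5 against 5 lines, with Benjamini-Hochberg adjustment at 0.05, and the procedure was tested on simulated data. Each line had 1 array, so p-values measure the spread between lines, and their number limits the precision. The alternatives were all 11 lines, the poly-A controls as a term or as a selection, median centring, each line left out, a second quantile normalization, a floor, a filter, an intensity trend, the mean over probe sets and other gaps for standing out.

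Named were the 9 genes, their partners, the 3 genes of each other list with the largest difference, the 3 genes most like each of the 9, and the lines at either end. CCR8, S1PR4, CD3D, LCK and CD79A were named after their values were seen. The genes and lists were chosen with earlier results of these data known. Correlations and the figures were made with Python 3.11.15, numpy 2.4.6, pandas 2.3.3 and matplotlib 3.10.9.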

Additional observations from a re-analysis of the deposited data

Results flagged for a closer look

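In 2 of the 18 sets of lines examined, 9 genes in each NKL group with JURKAT among the NKL-positive lines, a single line lay far from the others by Dixon's ratio at the 95% level, where chance gives about 1 in 20, or 0.9 of 18. CCR9 in LOUCY, at 3.32, was the lowest of the NKL-positive lines, with PEER next at 4.25 (ratio 0.66, limit 0.625). This value is at background. ITGAE in MOLT-14, at 12.0, was the highest of the NKL-negative lines, with MOLT-4 next at 10.82 (ratio 0.819, limit 0.710). The level in MOLT-14 was near that in PEER, 12.20, the highest NKL-positive line.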

How the results depend on the processing

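No paired analysis was possible because the groups share no cell line. The count of called genes stayed at 0 of 9 in every alternative, and of 171 recomputed differences 170 kept their direction. The exception was CD44, at -0.26 without SUP-T1. With each line left out the differences ran between 0.43 and 1.70 for CCR4, 1.17 and 2.23 for CCR7, -3.40 and -1.74 for CCR9, -0.26 and 1.75 for CD44, 1.36 and 2.98 for CD52, -0.52 and -0.13 for CXCR4, 0.12 and 0.61 for ITGAE, 0.67 and 1.81 for KLF2, and -2.31 and -0.79 for S1PR1. CD52 was at 1.36 without MOLT-4, ITGAE at 0.12 without PEER and 0.61 without MOLT-14, CXCR4 at -0.52 without HPB-ALL, -0.13 without LOUCY, -0.22 without MOLT-4 and -0.18 without SUP-T1, CD44 at 0.31 without LOUCY and 1.32 without MOLT-16, and S1PR1 at -0.81 without HPB-ALL. Among all probe sets 5 were called. The count was 0 with all 11 lines, 3 with a term for the poly-A controls, 3 in the lines with these controls and 3 with a floor at the 25th percentile, and between 3 and 13 with each line left out. The cause was not tested. Of the 29 combinations of gene and line that stood out, 14 remained in number with a gap of 3 log2 units. The mean over the probe sets of a gene lowered the KLF2 difference to 0.42. The smallest adjusted p of any of the 9 genes in any alternative was 0.114, for CCR9 in the lines with poly-A controls. Values at or below the lower quartile, such as S1PR1 in LOUCY and HPB-ALL, have no order among themselves, and 1 array per line gives no error for a line.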
